A study of Mus musculus with 9 samples.

Results

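The nuclear-encoded respiratory chain genes were taken from a gene-level RNA-seq table of mouse peritoneal wall phagocytes by symbol: those starting with Nduf, Uqcr, Atp5, Sdh followed by a to d, or Cox4 to Cox8, with pseudogene symbols ending in -ps left out. The rule found 97 of the 28764 symbols in the table. By complex they were 38 complex I genes and 8 complex I assembly factors (Ndufaf), 4 complex II genes and 4 complex II assembly factors (Sdhaf), 8 complex III genes, 18 complex IV genes and 17 complex V genes. Of these 97, 93 had at least 1 TPM (a transcript share scaled to 1000000 per library) in at least 3 of the 9 libraries and were tested, among 10136 tested genes in all. Cox4i2, Cox7b2, Cox8c and Ndufa4l2 did not reach that level and were not tested.

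The mice carried 1 green fluorescent reporter allele at Cx3cr1 and 1 red fluorescent reporter allele at Ccr2 (Cx3cr1gfp/+ Ccr2rfp/+, an F1 cross of Jackson lines) and were given 50 µg of Dextran-Cascade Blue intravenously 1 day before perfusion. CD11b+ Ly6G- cells were sorted from the digested tissue into 3 populations: double-negative (Dextran+ MHCII- Ccr2- Cx3cr1-, 85 to 90% of the cells per the labels), CCR2-RFP (MHCII+ Ccr2+ Cx3cr1-, 10 to 15%) and CX3CR1-GFP (MHCII+ Ccr2- Cx3cr1+, 0.5 to 1.5%). The labels describe the double-negative and CX3CR1-GFP cells as sessile resident macrophages and the CCR2-RFP cells as migratory tissue monocytes. Each population has 3 libraries, from sorts labelled 1, 2A and 2B, and values below are given in that order; neither age nor sex is stated in the labels. The free-text description of the 6 reporter-positive samples names the other reporter, whereas the column headings, titles and cell type fields fit each other and were used. Of 7 genes that the gates use, 6 were higher in CCR2-RFP cells than in double-negative cells, among them Ccr2, and Cx3cr1 was listed at 6.51, 16.4 and 4.13 TPM in the CX3CR1-GFP libraries and at 0 in the other 6.

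The respiratory chain sits in the inner mitochondrial membrane. Complexes I and II pass electrons from NADH and succinate to ubiquinone, complex III passes them to cytochrome c, complex IV passes them to oxygen, and complex V, the ATP synthase, uses the resulting proton gradient to make ATP. The subunits are encoded partly in the nucleus and partly in the mitochondrial genome, so the complexes are built from both sources. In macrophages and monocytes the balance between respiration and glycolysis is known to shift with activation, and succinate oxidation by complex II is a known point of control.

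The listed TPM summed to between 278579 and 382828 per library rather than to 1000000, and 1 gene, Siglece, took 61107 to 123879 TPM and the ribosomal RNA gene Rn18s 14240 to 28075 TPM. No read counts were used here, so depth is unknown. Of 10 macrophage markers 8 were lower, and of 8 dendritic cell markers 7 were higher, in the CCR2-RFP than the double-negative libraries (limma), and their part in the results below was not tested. The 14 skeletal muscle markers, all above 0 in every library, summed to 330.0, 465 and 368 TPM in double-negative, 55.1, 1379 and 55.0 TPM in CCR2-RFP, and 337, 2328 and 281 TPM in CX3CR1-GFP libraries. In sort 2A the CCR2-RFP and CX3CR1-GFP sums were far above those of the other sorts, and in sorts 1 and 2B the CCR2-RFP sums were below all others, a gap between populations that leaving out sort 2A does not remove. Striated muscle is rich in respiratory chain transcripts, so values without the 3 sort 2A libraries are given below, an alternative chosen after seeing the data. In bulk RNA, a smaller share of expressing cells and less RNA per cell cannot be told apart.

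The respiratory chain genes had their highest summed level in the CCR2-RFP population, and where single genes passed the test they were, with the deposited values, higher in CCR2-RFP cells or lower in CX3CR1-GFP cells. The sum was 1327, 1168 and 1427 TPM in the double-negative libraries, 1798, 1972 and 1929 TPM in the CCR2-RFP libraries and 1049, 1365 and 971 TPM in the CX3CR1-GFP libraries. All 3 CCR2-RFP sums lay above the other 6. As a share of the listed TPM without Siglece, the same sums were 0.569, 0.528 and 0.630% in double-negative, 0.699, 0.778 and 0.722% in CCR2-RFP, and 0.482, 0.640 and 0.454% in CX3CR1-GFP libraries. The CCR2-RFP shares again lay above the other 6. The CX3CR1-GFP library of sort 2A was the highest of its population on both scales.

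**Figure D1:**
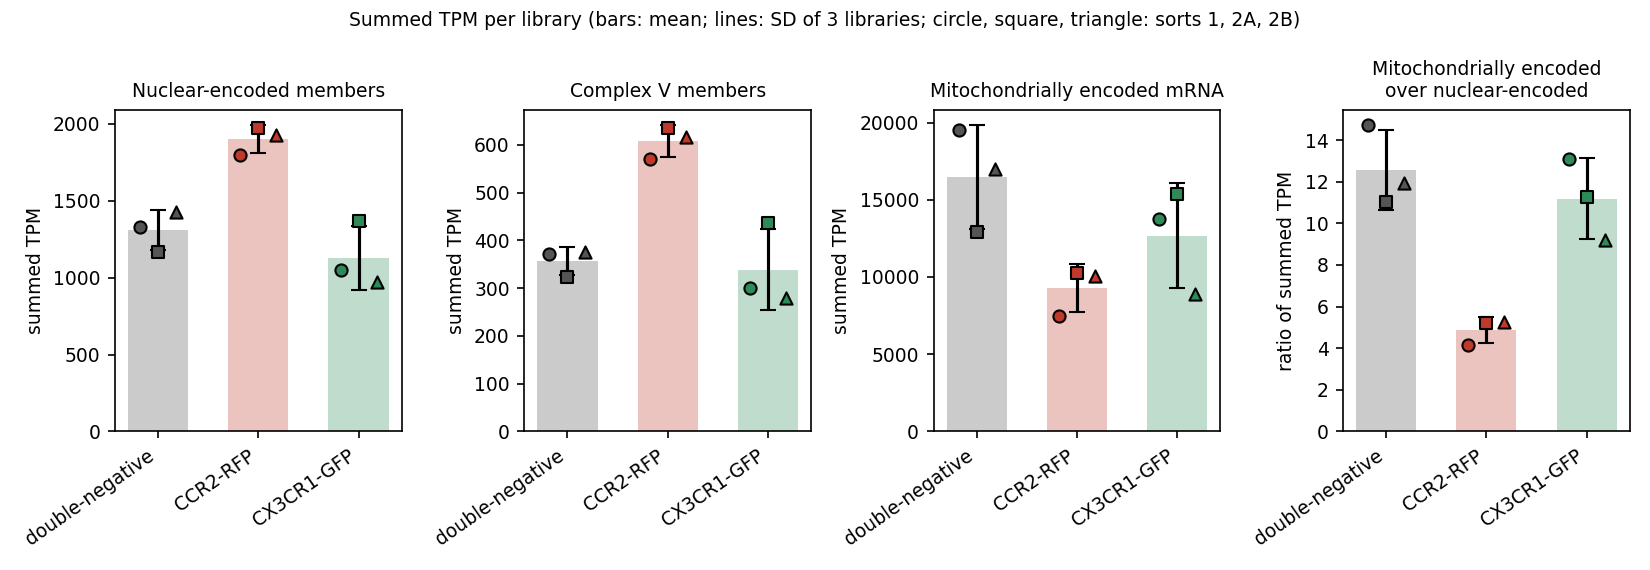
Summed TPM per library of the 97 nuclear-encoded respiratory chain genes, of the 17 complex V genes and of 8 mitochondrially encoded mRNAs, and the ratio of the mitochondrially encoded to the nuclear-encoded sum; bars are means and lines SDs of 3 libraries per population, with circles, squares and triangles for sorts 1, 2A and 2B. Nuclear-encoded sums are highest in the CCR2-RFP population (1798 to 1972 TPM), where the mitochondrially encoded to nuclear-encoded ratio is lowest (4.17 to 5.23).

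Against the double-negative population, 21 of the 93 tested genes were higher in CCR2-RFP cells and 0 were lower (limma on log2(TPM + 1), Benjamini-Hochberg over all genes; 20 higher by the same test with the sort as a replicate block). Of all tested genes, 14.9% were higher and 9.88% lower in that comparison. The median log2 fold change was 0.40 over the respiratory chain genes and 0.09 over all tested genes, with 73 respiratory chain genes positive and 20 negative. The count of higher genes depended on scaling and on single libraries: it was 19 after median-of-ratios scaling. After rescaling without Siglece, Rn18s, ribosomal protein genes and the mitochondrial ND6, COX1 and ATP6 (other mitochondrial mRNAs were kept) it was 9. After rescaling without Siglece alone it was 6, and after quantile normalization 3. It was 7 without the double-negative library of sort 2A, 8 without the CCR2-RFP library of sort 2B and 9 without that of sort 2A, 13 and 14 without the double-negative library of sort 1 or 2B, and 7 without all of sort 2A. The difference between the respiratory chain median and the median of all genes was 0.32 with the deposited values, 0.28 and 0.27 after the 2 rescalings, 0.25 after quantile normalization and 0.26 without sort 2A. The median of all genes itself moved from 0.09 to -0.03 and -0.05 under the rescalings, and in CX3CR1-GFP against CCR2-RFP cells from -0.11 to 0.10 and 0.09.

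Few differences separated the CX3CR1-GFP from the double-negative population. In that comparison 1 of the 93 genes was lower (Ndufa13) and 0 were higher, where 1.61% of all tested genes were lower and 1.16% higher; the medians were -0.19 for respiratory chain genes and -0.03 for all genes. Without the CX3CR1-GFP library of sort 2A that respiratory chain median was -0.34, and without all of sort 2A it was -0.41. Against the CCR2-RFP population, 38 of 93 were lower and 0 higher, where 17.3% of all tested genes were lower and 8.96% higher; the medians were -0.66 and -0.11. Both comparisons with the double-negative population use the same 3 double-negative libraries, and the 2 comparisons that involve CCR2-RFP cells share those 3 libraries.

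That count of 38 was 33 after median-of-ratios scaling, 13 after either rescaling, 8 after quantile normalization, 24 with no filter on low values and 20 without the CCR2-RFP library of sort 2A. Scaling also moved the split of calls over all genes: 60.2% of all calls were on the higher side in CCR2-RFP against double-negative cells with deposited values, and 49.1, 47.1 and 49.4% after the 2 rescalings and quantile normalization. For CX3CR1-GFP against CCR2-RFP cells the share was 34.1%, then 55.1, 54.2 and 48.9%, and for CX3CR1-GFP against double-negative cells 42.0%, then 56.3, 50.8 and 50.9%. No called respiratory chain gene changed sign under any of the 21 alternatives run. Those called under every alternative were Ndufa6 and Atp5e in CCR2-RFP against double-negative cells, and Ndufa6, Ndufa13, Ndufb6, Sdhd, Cox5a, Cox8a and Atp5e in CX3CR1-GFP against CCR2-RFP cells.

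**Figure D2:**
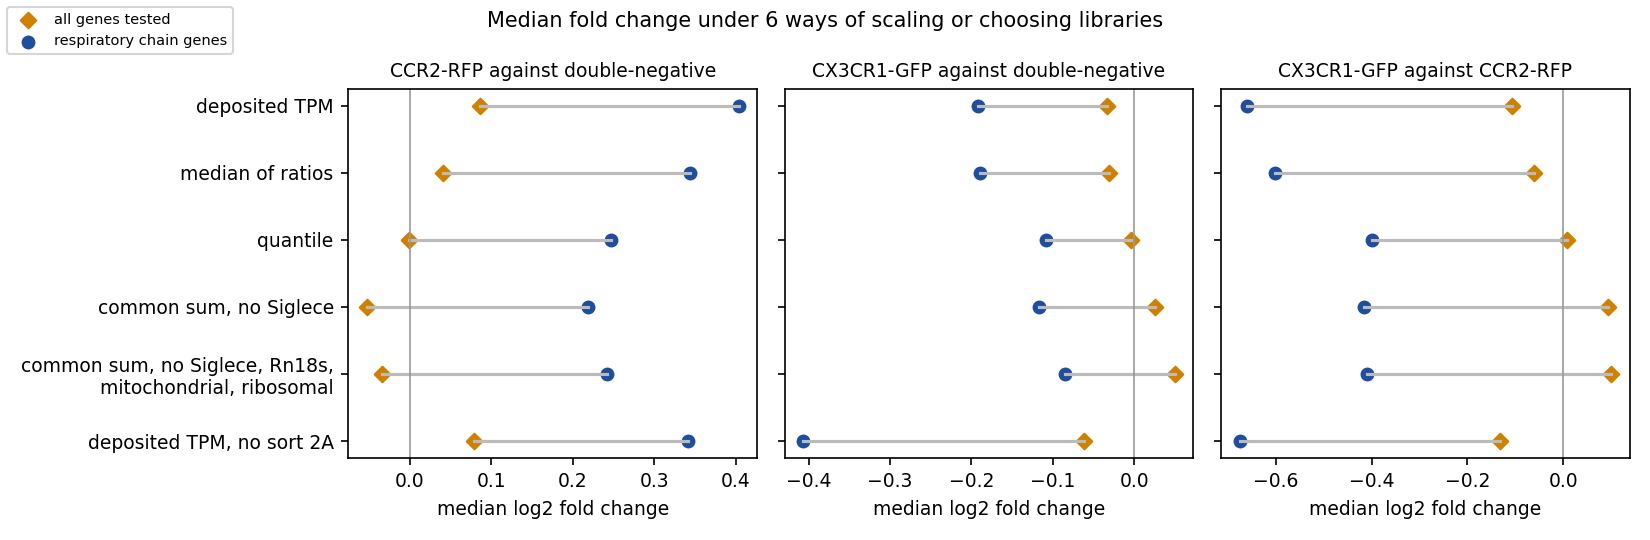
Median log2 fold change of the tested respiratory chain genes (circles) and of all tested genes (diamonds) in the 3 comparisons, with the deposited TPM, 4 other scalings, and without sort 2A. In the scaling labels, mitochondrial stands for ND6, COX1 and ATP6 only. The respiratory chain median lies above the all-gene median in CCR2-RFP against double-negative cells and below it in the other comparisons in each of the 6 settings plotted.

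A test for any difference among the 3 populations (the moderated F test of the same limma fit) called 31 of the 93 genes, where 27.4% of all tested genes were called. They were 8 in complex I, 1 in complex II, 4 in complex III, 8 in complex IV and 10 in complex V, and none of the 12 assembly factors. That total was 8 and 7 after the 2 rescalings, 7 after quantile normalization, and 10, 11 and 17 without the CCR2-RFP library of sort 2A, 2B or 1.

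**Figure D3:**
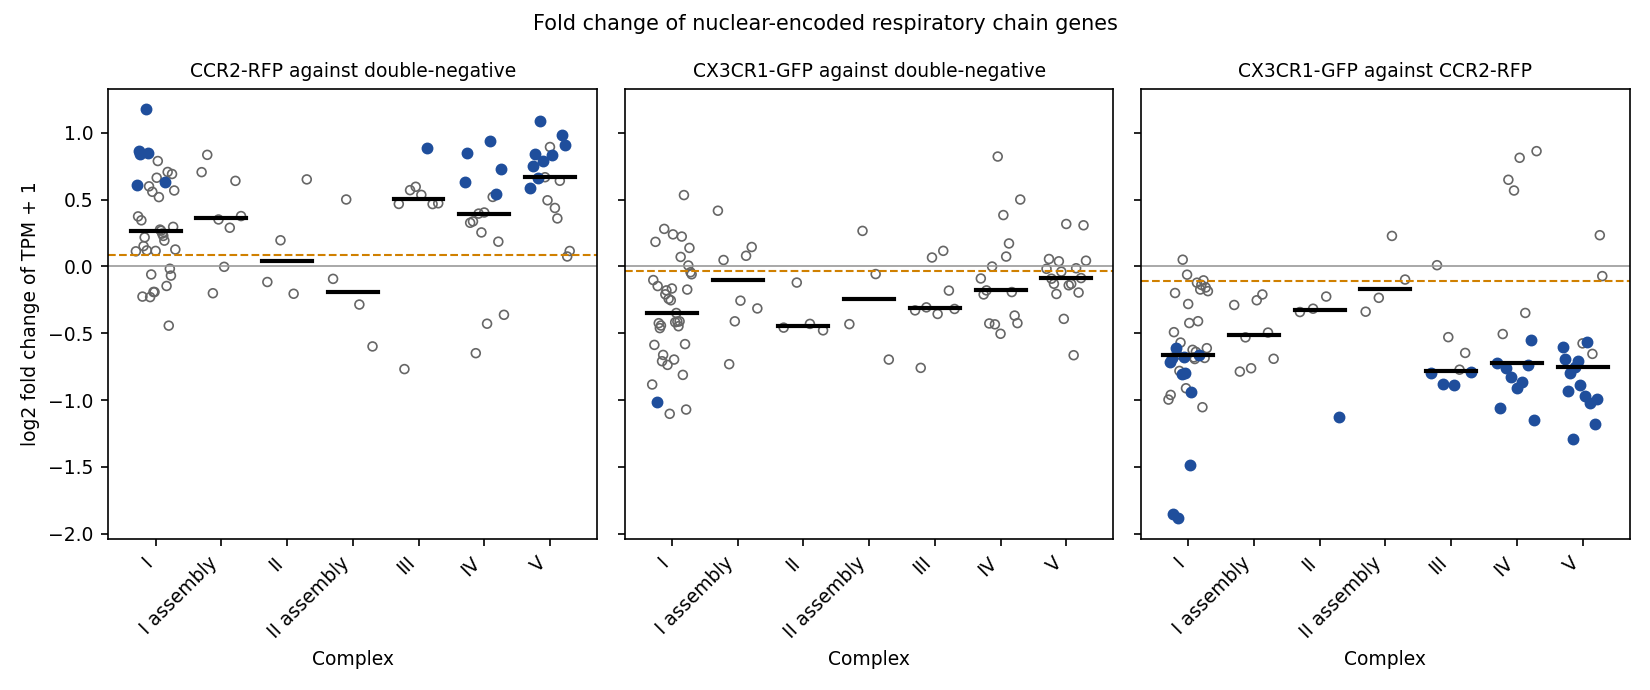
Log2 fold change of TPM + 1 for each of the 93 tested respiratory chain genes, by complex, in the 3 comparisons; filled points are called at adjusted p below 0.05, open points are not, black bars are medians and the dashed line is the median of all tested genes. Complex V lies highest in CCR2-RFP against double-negative cells (median 0.67), and complex II lies near 0 (0.04).

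Promoter stretches are shown for 4 genes: Ndufa6 and Atp5e, the 2 called under every alternative in CCR2-RFP against double-negative cells, and Atp5l and Cox6a1, shown because they carry matches to the motif of nuclear respiratory factor 1 (NRF1), a known regulator of respiratory chain genes. They come from RefSeq on GRCm38.p6 and lie upstream of the annotated start, on the minus strand in each case, at chr2:174464106-174464221 for Atp5e, chr9:44920888-44920987 for Atp5l, chr5:115349039-115349138 for Cox6a1 and chr15:82354323-82354442 for Ndufa6. Capitals mark exact matches on either strand to GCGCATGCG (the NRF1 motif, which overlaps itself by 8 bases on the opposite strand) or CCGGAAG (the motif of GABPA, the DNA-binding part of nuclear respiratory factor 2).
Atp5e: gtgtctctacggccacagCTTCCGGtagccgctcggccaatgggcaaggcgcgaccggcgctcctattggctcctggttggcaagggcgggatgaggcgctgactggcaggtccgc
Atp5l: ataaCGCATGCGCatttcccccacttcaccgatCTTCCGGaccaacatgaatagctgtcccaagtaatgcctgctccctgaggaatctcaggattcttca
Cox6a1: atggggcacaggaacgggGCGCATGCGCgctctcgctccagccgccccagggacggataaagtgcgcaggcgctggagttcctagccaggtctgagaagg
Ndufa6: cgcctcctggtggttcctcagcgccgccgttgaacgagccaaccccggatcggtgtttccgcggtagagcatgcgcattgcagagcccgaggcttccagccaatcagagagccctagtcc
Within the whole windows of 300 bases from which these stretches were taken, Atp5l and Cox6a1 held both motifs, Atp5e the GABPA motif alone and Ndufa6 neither; the GABPA match of Cox6a1, at bases -16 to -10 from the start, lies outside the stretch shown. Cox6a1, a ubiquitous complex IV subunit, was at 27.7, 30.7 and 30.6 TPM in double-negative, 38.2, 33.0 and 42.4 TPM in CCR2-RFP, and 25.7, 21.7 and 18.6 TPM in CX3CR1-GFP libraries. It was lower in CX3CR1-GFP than in CCR2-RFP cells (log2 fold change -0.76, adjusted p = 0.00559, limma) and not called in CCR2-RFP against double-negative cells (0.34, adjusted p = 0.16). Windows of 300 bases (250 before the start and 50 after) were matched for 81 of the 97 respiratory chain genes. The NRF1 motif was in 12.3% of those genes, 4.45% of all tested genes with a window and 1.95% of all genes with a window. The GABPA motif was in 25.9, 21.8 and 9.93%, the YY1 motif AAGATGGCG in 11.1, 4.02 and 1.64%, and the ESRRA motif TCAAGGTCA in 2.47, 0.281 and 0.466% of the same gene sets. Among the 18 genes with a window that were higher in CCR2-RFP cells than in double-negative cells, 2 held the NRF1 motif, 4 the GABPA motif and 0 either of the others. A match is a description of the letters in these windows only.

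Complex V, the ATP synthase, had with the deposited values the highest share of called genes of the 5 complexes in both comparisons that involve CCR2-RFP cells (52.9% higher and 76.5% lower, against 14.9 and 17.3% of all tested genes). That order did not hold throughout: in CX3CR1-GFP against CCR2-RFP cells it was 1 of 17 after quantile normalization, below the share of each other complex, and 4 of 17 after either rescaling, where complex IV had 4 of 15 and complex II 1 of 4. Against double-negative cells, 9 of its 17 genes were higher in CCR2-RFP cells, and all 17 had a positive fold change. The complex V sum was 371, 323 and 376 TPM in double-negative, 569.9, 635 and 618 TPM in CCR2-RFP, and 301, 437 and 279.7 TPM in CX3CR1-GFP libraries. The complex V sum relative to the complex I sum of the same library, which multiplying a library by a constant cannot move, was 0.850, 0.849 and 0.785 in double-negative, 1.05, 1.06 and 1.11 in CCR2-RFP, and 0.988, 1.06 and 0.893 in CX3CR1-GFP libraries. The CCR2-RFP and double-negative ratios did not overlap, whereas the CX3CR1-GFP ratios overlapped the CCR2-RFP ones through the library of sort 2A. The CX3CR1-GFP ratios, too, lay above all double-negative ones, in every sort. The median log2 fold change of complex V in CCR2-RFP against double-negative cells was between 0.49 and 0.79 over the alternatives, with 1 to 11 genes called.

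Within the enzyme, all 5 genes of the catalytic F1 head (Atp5a1, Atp5b, Atp5c1, Atp5d and Atp5e) were higher in CCR2-RFP cells than in double-negative cells and lower in CX3CR1-GFP than in CCR2-RFP cells. So were 3 of the 4 peripheral stalk genes, which hold the head still (Atp5f1, Atp5h and Atp5o), and 1 of the 3 small membrane subunits (Atp5l). The 3 c-ring genes (Atp5g1, Atp5g2 and Atp5g3), which encode the same mature rotor subunit, were not called against double-negative cells, at log2 fold changes of 0.67, 0.49 and 0.89. Of these, Atp5g1 and Atp5g2 were lower in CX3CR1-GFP than in CCR2-RFP cells. These calls are those with the deposited values, where 14.9% of all tested genes were higher in the first comparison and 17.3% lower in the second. After quantile normalization Atp5e was the only complex V gene called in either comparison. The other F1 head genes then had adjusted p of 0.0775 to 0.142 (limma) in CCR2-RFP against double-negative cells. This grouping into modules was made after the values were seen.

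Atp5e, the epsilon subunit of the F1 head (chr2:174461072-174464105, minus strand), was at 14.4, 12.5 and 12.8 TPM in double-negative, 29.2, 33.5 and 25.5 TPM in CCR2-RFP, and 8.21, 13.996 and 12.5 TPM in CX3CR1-GFP libraries. The CCR2-RFP values lay above all 6 others, and the other populations overlapped. Its log2 fold change was 1.09 ± 0.20 (SE; adjusted p = 0.0026, limma) in CCR2-RFP against double-negative cells and -1.29 ± 0.20 (adjusted p = 0.000935) in CX3CR1-GFP against CCR2-RFP cells. Over the alternatives the first adjusted p was between 0.00089 and 0.0294.

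Atp5l, the g subunit in the membrane part, was at 39.8, 26.2 and 44.0 TPM in double-negative, 73.2, 72.4 and 69.9 TPM in CCR2-RFP, and 24.8, 50.1 and 24.3 TPM in CX3CR1-GFP libraries. Its log2 fold change in CCR2-RFP against double-negative cells was 0.98 ± 0.28 (SE; adjusted p = 0.0256, between 0.00372 and 0.0972 over the alternatives). Atp5o, which links the stalk to the head, was at 19.4, 13.9 and 16.9 TPM, 25.6, 35.3 and 36.0 TPM, and 11.1, 23.0 and 14.7 TPM in the same order. For both genes the CCR2-RFP values lay above the others, and the highest CX3CR1-GFP value was that of sort 2A.

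Atp5b, the catalytic beta subunit, had the highest mean of the complex, at 48.7, 39.98 and 37.9 TPM in double-negative, 55.4, 70.6 and 92.5 TPM in CCR2-RFP, and 43.8, 56.5 and 33.5 TPM in CX3CR1-GFP libraries. It was called in both comparisons that involve CCR2-RFP cells (log2 fold changes 0.75 and -0.70; adjusted p = 0.0365 and 0.0476, limma), and the CX3CR1-GFP and CCR2-RFP values overlapped. Those calls were lost under 11 and 17 of the 21 alternatives. Atp5s and Atp5sl, whose products share the name but are not part of the enzyme, were at 0.486 to 1.63 and 1.13 to 2.96 TPM and were called in no comparison.

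**Figure D4:**
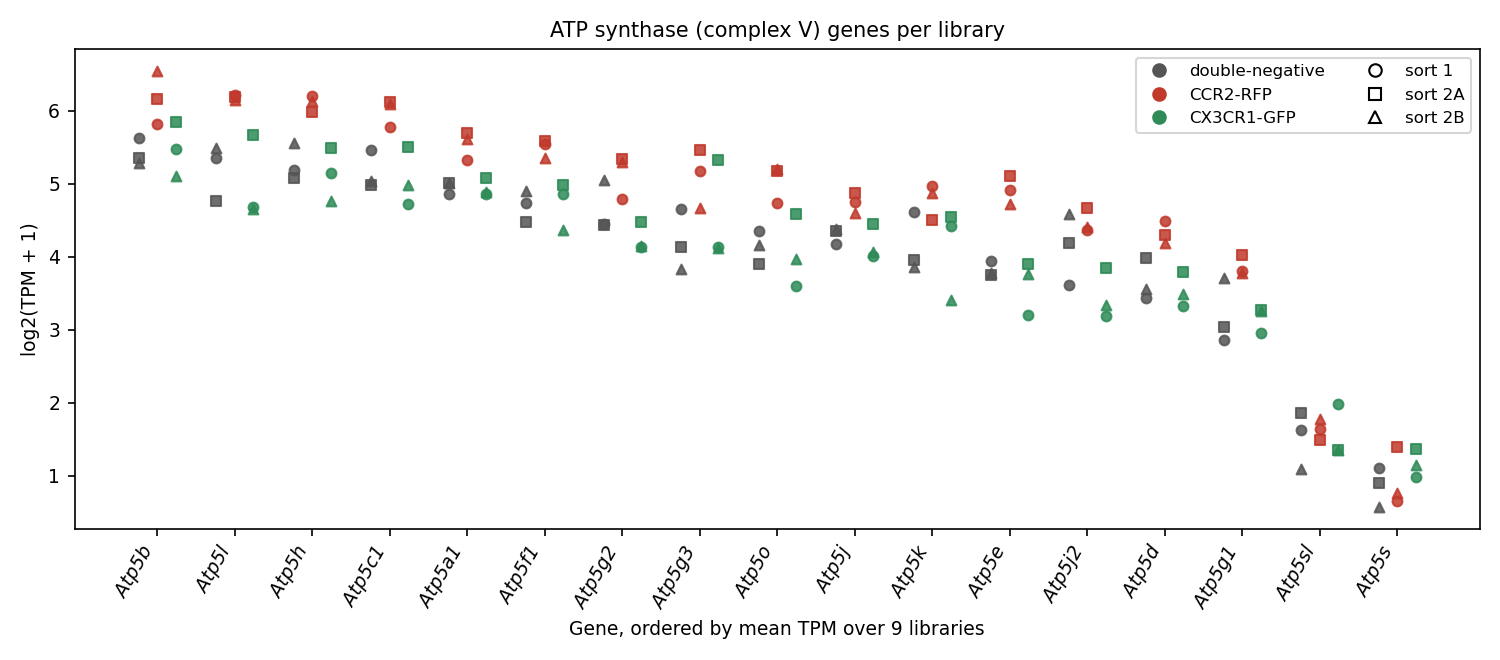
Log2(TPM + 1) of the 17 complex V genes in each of the 9 libraries, ordered by mean level, with colour for the population and shape for the sort. For Atp5e, Atp5l, Atp5h and Atp5c1 the CCR2-RFP libraries lie above all others; Atp5s and Atp5sl lie far below the enzyme's genes and show no such order.

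Complex I, the NADH dehydrogenase, had 6 of 37 tested genes higher in CCR2-RFP cells than in double-negative cells, and 11 of 37 lower in CX3CR1-GFP than in CCR2-RFP cells. These were 16.2% against 14.9% of all tested genes, which is near the background, and 29.7% against 17.3%. Among those higher in CCR2-RFP cells were Ndufa6, Ndufa8, Ndufa10, Ndufa12 and Ndufa13, which encode supernumerary subunits around the catalytic core. Its median log2 fold change was 0.27 against double-negative cells (0.09 to 0.37 over the alternatives), with 28 genes positive and 9 negative. Ndufs3, a subunit of the catalytic core, was lower in CX3CR1-GFP than in CCR2-RFP cells (log2 fold change -0.67, adjusted p = 0.0451, limma), a call kept in 4 of the 21 alternatives.

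Ndufa6 (chr15:82350140-82354322, minus strand), which sits on the peripheral arm, was at 32.2, 24.4 and 21.98 TPM in double-negative, 66.9, 52.4 and 60.7 TPM in CCR2-RFP, and 13.1, 13.0 and 21.4 TPM in CX3CR1-GFP libraries. The 3 populations did not overlap, in the order CX3CR1-GFP, double-negative, CCR2-RFP. The log2 fold change was 1.17 ± 0.22 (SE; adjusted p = 0.0027, limma) in CCR2-RFP against double-negative cells, the largest of any respiratory chain gene with the deposited values. It was -1.88 ± 0.22 (adjusted p = 0.00015) in CX3CR1-GFP against CCR2-RFP cells and -0.71 (adjusted p = 0.14, not called) in CX3CR1-GFP against double-negative cells.

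Ndufa13 (chr8:69894180-69902558, minus strand), also known as GRIM-19, a supernumerary subunit, was at 13.98, 8.86 and 14.01 TPM in double-negative, 18.8, 21.9 and 27.2 TPM in CCR2-RFP, and 6.05, 4.86 and 5.53 TPM in CX3CR1-GFP libraries. The 3 populations did not overlap here either. It was the 1 respiratory chain gene lower in CX3CR1-GFP than in double-negative cells (log2 fold change -1.01 ± 0.21 SE, adjusted p = 0.033, limma), a call kept in 13 of 21 alternatives with adjusted p between 0.0227 and 0.141. It was lost without the double-negative library of sort 1 or of sort 2B, without any 1 of the CX3CR1-GFP libraries, without all of sort 2A, with no filter and with only the 2 populations fitted. Of its 1251 exon bases, 375 are shared with the antisense gene Tssk6, and of the 659 of Ndufb6, 257 are shared with antisense Smim27. In all, 14 of the respiratory chain genes share at least 10% of their exon bases with other genes. Among them, by antisense bases, are Atp5o (702 of 1972), Sdhaf1 (1733 of 2490), Uqcrc2 (504 of 2552) and Cox6a2 (70 of 680). The use of strand in counting is not given in the sources used here, so reads of such partners cannot be told apart.

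Ndufb6, in the membrane arm, was at 4.999, 6.82 and 6.97 TPM in double-negative, 13.9, 8.60 and 12.5 TPM in CCR2-RFP, and 5.15, 1.64 and 4.41 TPM in CX3CR1-GFP libraries, and differed by -1.49 ± 0.32 on the log2 scale (SE; adjusted p = 0.0061, limma) in CX3CR1-GFP against CCR2-RFP cells. Ndufa12, a small accessory subunit, had 12.0, 10.1 and 9.46 TPM in the double-negative and 17.3, 28.7 and 15.7 TPM in the CCR2-RFP population, and Ndufa8 had 9.25, 5.68 and 5.05 TPM, then 10.0, 12.6 and 15.2 TPM. In both, the CCR2-RFP library of lowest level was still above the highest double-negative one. Ndufa4, named for complex I and now counted with complex IV, was at 30.1 to 35.7 TPM in double-negative, 33.6 to 40.4 TPM in CCR2-RFP and 18.7 to 29.3 TPM in CX3CR1-GFP libraries. It was lower in CX3CR1-GFP than in CCR2-RFP cells (log2 fold change -0.61, adjusted p = 0.027, limma).

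The 8 complex I assembly factors, which help build the complex and are not part of it, were at low levels, with population medians of 1.55 to 2.60 TPM. With the deposited values none was called in any comparison, and neither were the 4 complex II assembly factors. All tested genes had 14.9% higher in CCR2-RFP against double-negative cells and 17.3% lower in CX3CR1-GFP against CCR2-RFP cells. So few genes cannot tell an absence of calls from these shares. Over the 21 alternatives, up to 1 complex I factor was higher in the first comparison and up to 2 were lower in the second. Those lower included Ndufaf8 in 2 alternatives and Ndufaf3 in 1. No complex II factor was called in any of them. Ndufaf8 was at 6.59, 3.95 and 3.63 TPM in double-negative, 7.58, 6.05 and 5.30 TPM in CCR2-RFP and 5.52, 2.41 and 3.06 TPM in CX3CR1-GFP libraries. Ndufaf3 was at 2.96 to 3.21, 1.798 to 3.90 and 0.685 to 3.61 TPM, and Sdhaf1 and Sdhaf2 at 1.55 to 4.03 and 4.30 to 7.88 TPM over the 9 libraries. A value of 1 TPM lies near the pseudocount, which makes fold changes of such genes smaller on the log2(TPM + 1) scale.

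Complex II, succinate dehydrogenase, is the 1 complex encoded wholly in the nucleus. None of its 4 genes was called in CCR2-RFP against double-negative cells, and the median of 0.04 changed sign in 6 of the 21 alternatives. Its sum was 50.3, 42.4 and 47.9 TPM in double-negative, 46.9, 54.8 and 52.2 TPM in CCR2-RFP, and 39.7, 36.4 and 31.8 TPM in CX3CR1-GFP libraries. The double-negative and CCR2-RFP sums overlapped, and the CX3CR1-GFP sums lay below both. Whether complex II differs from the other complexes was not tested.

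Sdha, the flavoprotein that binds succinate, was at 15.0, 10.3 and 15.0 TPM in double-negative, 8.97, 11.7 and 16.9 TPM in CCR2-RFP, and 11.9, 7.71 and 8.92 TPM in CX3CR1-GFP libraries. Sdhb, the iron-sulfur subunit, was at 14.2, 11.1 and 11.7 TPM, 16.2, 13.8 and 12.8 TPM, and 13.6, 10.4 and 9.92 TPM in the same order, and the membrane anchor Sdhc at 13.6, 13.96 and 13.0 TPM, 12.6, 13.4 and 9.23 TPM, and 9.85, 10.6 and 8.94 TPM. The populations overlapped for all 3 of these genes, except that Sdhc was lower in each CX3CR1-GFP library than in each double-negative one, without passing the test (adjusted p = 0.26, limma). The other membrane anchor, Sdhd, was at 7.56, 6.98 and 8.14 TPM in double-negative, 9.03, 15.9 and 13.2 TPM in CCR2-RFP, and 4.32, 7.65 and 4.01 TPM in CX3CR1-GFP libraries. Sdhd was lower in CX3CR1-GFP than in CCR2-RFP cells (log2 fold change -1.13 ± 0.26 SE, adjusted p = 0.0084, limma).

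Complex III, the cytochrome bc1 complex, had 1 of 8 genes higher in CCR2-RFP cells than in double-negative cells and 4 of 8 lower in CX3CR1-GFP than in CCR2-RFP cells (12.5 and 50.0%, against 14.9 and 17.3% of all tested genes). The first was Uqcrfs1, the Rieske iron-sulfur protein, at 6.44, 9.92 and 12.7 TPM in double-negative, 16.4, 23.6 and 15.5 TPM in CCR2-RFP, and 8.26, 12.9 and 10.0 TPM in CX3CR1-GFP libraries (log2 fold change 0.89 ± 0.26 SE, adjusted p = 0.030, limma). The 4 were Uqcrb, Uqcrc2, Uqcrq and Uqcr10, at log2 fold changes of -0.88, -0.89, -0.79 and -0.80. Uqcrh, the hinge protein and the gene of highest mean in the complex, was at 54.9, 36.1 and 70.7 TPM, 64.5, 72.6 and 80.6 TPM, and 55.9, 48.2 and 35.5 TPM in the order double-negative, CCR2-RFP, CX3CR1-GFP, and was called in no comparison.

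Uqcr11, a small complex III subunit, differed from its neighbours in sign. It was at 11.3, 9.61 and 16.9 TPM in double-negative, 15.2, 3.76 and 5.12 TPM in CCR2-RFP, and 5.45, 8.45 and 6.92 TPM in CX3CR1-GFP libraries. In sorts 2A and 2B the CCR2-RFP value was below every double-negative one, and in sort 1 it was within their range, and the difference of -0.77 ± 0.41 (SE, log2 scale) did not pass the test (adjusted p = 0.21, limma). It was chosen for mention after its values were seen.

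Complex IV, cytochrome c oxidase, had 5 of 15 tested genes higher in CCR2-RFP cells than in double-negative cells, and 9 of 15 lower in CX3CR1-GFP than in CCR2-RFP cells (33.3 and 60%, against 14.9 and 17.3% of all tested genes). All of them were among the 10 genes of the ubiquitous subunits. Cox5a was at 16.9, 16.7 and 21.9 TPM in double-negative, 29.4, 32.0 and 40.9 TPM in CCR2-RFP, and 16.2, 20.1 and 11.9 TPM in CX3CR1-GFP libraries. The CCR2-RFP values lay above the rest, with log2 fold changes of 0.85 ± 0.21 (SE; adjusted p = 0.015, limma) against double-negative cells and of -1.06 ± 0.21 (adjusted p = 0.0046) for CX3CR1-GFP against CCR2-RFP cells.

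Cox8a was at 32.4, 27.0 and 27.8 TPM in double-negative, 42.7, 39.8 and 67.4 TPM in CCR2-RFP, and 22.7, 24.5 and 17.4 TPM in CX3CR1-GFP libraries, and the 3 populations did not overlap. Cox7a2 was at 19.2, 19.8 and 15.1 TPM, 31.4, 36.7 and 38.2 TPM, and 14.8, 30.3 and 15.0 TPM in the same order. Its CX3CR1-GFP library of sort 2A reached nearly the CCR2-RFP level, and the other CX3CR1-GFP libraries did not. Cox4i1, the gene of highest mean in the complex, was at 42.0, 32.0 and 43.5 TPM, 55.6, 65.2 and 62.1 TPM, and 40.1, 42.3 and 28.4 TPM. Cox7b and Cox4i1 were also higher in CCR2-RFP cells than in double-negative cells (log2 fold changes 0.54 and 0.63; adjusted p = 0.0445 and 0.0296, limma), calls lost under 15 and 11 of the 21 alternatives.

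Several complex IV subunits have a second form restricted to other tissues, and these were at low levels. Cox4i2, the lung form of Cox4, was listed at 0 in 8 libraries and at 0.161 TPM in the CCR2-RFP library of sort 1. Cox7b2 was at most at 0.167 TPM, Cox8c at most at 0.191 TPM and Ndufa4l2, a partner of Ndufa4 known to respond to hypoxia, at most at 0.394 TPM. Cox6b2, the testis form, was at 0.780, 1.54 and 0.809 TPM in double-negative, 2.52, 1.04 and 0.932 TPM in CCR2-RFP, and 3.29, 3.14 and 1.55 TPM in CX3CR1-GFP libraries, with no call. Its share of the Cox6b1 and Cox6b2 sum was 10.2 to 15.0% in CX3CR1-GFP and 2.56 to 6.81% in the other libraries, which did not overlap. Cox7a2l, a factor for supercomplexes of complexes III and IV, was at 19.6 to 31.8, 28.8 to 43.9 and 25.4 to 34.5 TPM in the 3 populations and was not called.

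The striated muscle forms Cox6a2, Cox8b and Cox7a1 were called in no comparison with the deposited values of all 9 libraries. Without the 3 sort 2A libraries, Cox6a2 was lower in CCR2-RFP cells than in double-negative cells (log2 fold change -1.64, adjusted p = 0.0122, limma; 0.0122 to 0.937 over the alternatives), and without the CX3CR1-GFP library of sort 2B, Cox7a1 was higher in CX3CR1-GFP than in CCR2-RFP cells (1.15, adjusted p = 0.0123; 0.0123 to 0.239). Cox6a2 was at 3.41, 1.43 and 3.30 TPM in double-negative, 0.111, 5.16 and 0.745 TPM in CCR2-RFP, and 0.644, 10.0 and 1.54 TPM in CX3CR1-GFP libraries. Cox8b was at 2.44, 0.485 and 0.145 TPM, 0, 1.75 and 0 TPM, and 0.480, 6.55 and 0.481 TPM in the same order. For both genes the sort 2A library was the highest within the CCR2-RFP and the CX3CR1-GFP population, as it was for the muscle marker sum. In double-negative cells Cox6a2 was lowest in sort 2A (1.43 TPM), where the marker sum was highest (465 TPM). As a share of both forms, Cox6a2 reached 31.6% and Cox8b 21.1% in the CX3CR1-GFP library of sort 2A, and Cox6a2 reached 13.5% in the CCR2-RFP library of sort 2A. Cox7a1 was at 13.1, 6.06 and 3.40% of the Cox7a1 and Cox7a2 sum in CX3CR1-GFP libraries, highest in sort 1. That share was 1.05, 2.24 and 0.238% in CCR2-RFP libraries, highest in sort 2A. Without the 3 sort 2A libraries, 28 of 90 tested respiratory chain genes were lower in CX3CR1-GFP than in CCR2-RFP cells, where 12.2% of all tested genes were. The part of muscle RNA in the ubiquitous subunits of the sort 2A libraries was not tested.

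**Figure D5:**
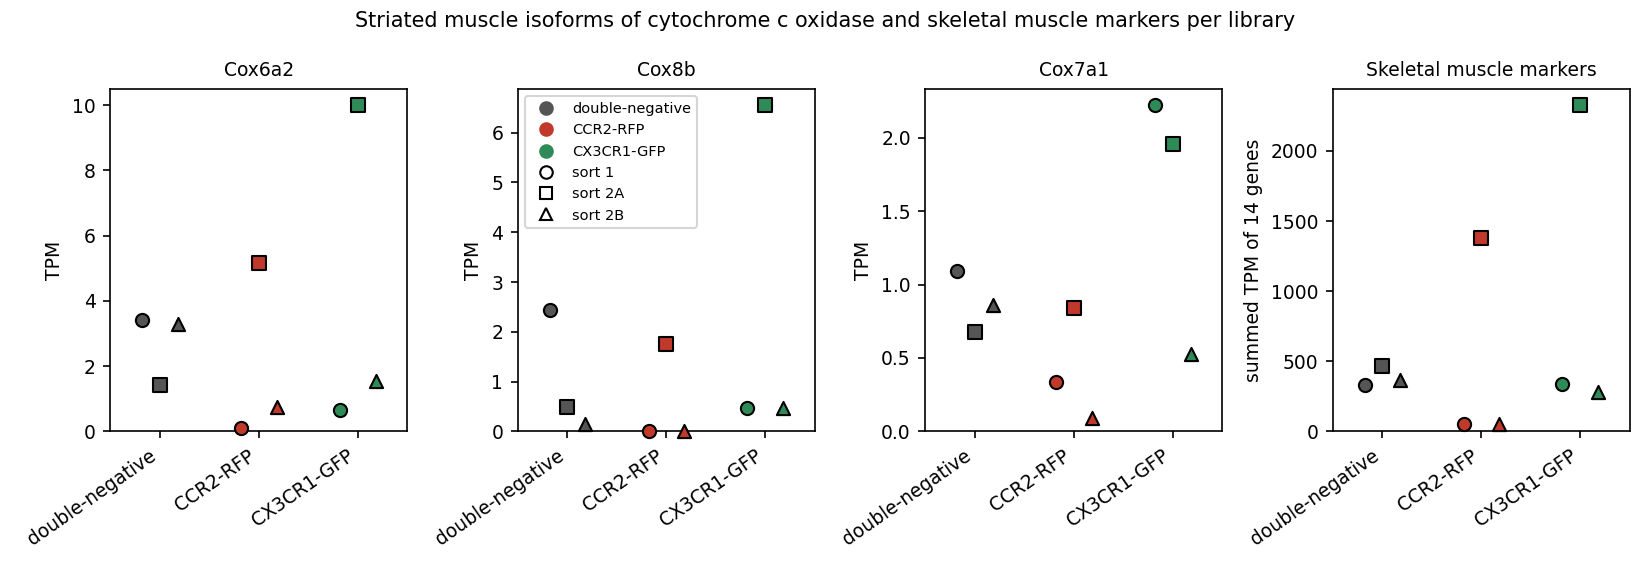
TPM of the striated muscle isoforms Cox6a2, Cox8b and Cox7a1 and summed TPM of 14 skeletal muscle markers in each library, by population (colour) and sort (shape). The CX3CR1-GFP library of sort 2A is highest for Cox6a2 (10.0 TPM), Cox8b (6.55 TPM) and the marker sum (2328 TPM), and the CCR2-RFP library of sort 2A is the highest of its population in all 4 panels.

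Mitochondrially encoded mRNAs of the same complexes were lower in CCR2-RFP cells than in double-negative cells. Of 8 listed, 6 were tested, and 5 were lower in CCR2-RFP cells than in double-negative cells (83.3%, against 9.88% of all tested genes). The median log2 fold change of the 6 was -0.89 (between -1.12 and -0.73 over the alternatives). COX1, the catalytic subunit of complex IV, was at 5397, 3685 and 4700 TPM (limma adjusted p = 0.016) in double-negative, 1973, 2652 and 2777 TPM in CCR2-RFP, and 3561, 3646 and 2287 TPM in CX3CR1-GFP libraries. ND6, a membrane subunit of complex I, was at 712, 587 and 696 TPM, 294, 379.8 and 399.99 TPM, and 549, 610.4 and 347 TPM in the same order. For both, all CCR2-RFP values lay below all double-negative ones. The skeletal muscle markers moved with them, with 13 of 14 negative and 0 called in the same comparison (median -0.98); without sort 2A the mRNAs had a median of -1.11 and again 5 lower. In CX3CR1-GFP against double-negative cells all 6 mRNAs were negative and none called (median -0.40), the same sign as the median of the nuclear genes. The muscle markers had the opposite sign there, with all 14 positive and 0 called (median 0.62). The part of muscle RNA in these mRNAs was not tested. In CCR2-RFP against double-negative cells the count of lower mRNAs was 1 without the double-negative library of sort 1 or of sort 2B. It was 0 without the CCR2-RFP library of sort 1.

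Set against the nuclear genes of its own complex in the same library, COX1 was 19.3, 13.9 and 15.4 times the complex IV sum in double-negative, 5.14, 6.22 and 6.43 times in CCR2-RFP, and 14.4, 12.0 and 11.3 times in CX3CR1-GFP libraries. ND6 was 1.63, 1.54 and 1.45 times the complex I sum in double-negative, 0.540, 0.633 and 0.717 times in CCR2-RFP, and 1.804, 1.48 and 1.11 times in CX3CR1-GFP libraries. In both ratios, which multiplying a library by a constant cannot move, the CCR2-RFP libraries lay below the other 6. None of the 6 tested mRNAs was called in CX3CR1-GFP against CCR2-RFP cells, where all 6 were positive (median 0.44). ATP6 was listed at 0 in 8 libraries and at 648 TPM in the other, and ND5 was at most at 1.18 TPM, which may be failed estimates, so neither entered these 2 ratios, and both are in the plotted sum of 8.

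Other genes of the pathway, from lists chosen with earlier results of these data known, showed the following. Cytochrome c (Cycs), the carrier between complexes III and IV, was at 14.4, 14.02 and 12.1 TPM in double-negative, 27.1, 30.3 and 26.6 TPM in CCR2-RFP, and 11.5, 15.9 and 12.7 TPM in CX3CR1-GFP libraries. Its CCR2-RFP values lay far above both others, and Cycs and Cyc1, the complex III subunit that hands electrons to it, were both higher in CCR2-RFP cells than in double-negative cells (log2 fold changes 1.00 and 0.88; adjusted p = 0.00115 and 0.0101, limma). Of 14 mitochondrial carriers and pores, 8 were higher in CCR2-RFP cells than in double-negative cells, among them Slc25a5, an ADP/ATP carrier (0.99), Ucp2, an inner membrane carrier (0.99), and Mpc1, part of the pyruvate carrier (1.11). Of 25 tested import and cristae genes, 7 were higher, among them Tomm20 and Tomm70a, receptors on the outer membrane (1.07 and 0.65). These were 57.1 and 28% of the 2 lists, against 14.9% of all tested genes. None of either list was lower, where 9.88% of all tested genes were. Over the alternatives the counts were 4 to 9 carriers and 2 to 8 import and cristae genes, where 4.8 to 24% of all tested genes were higher.

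Among 18 genes of the TCA cycle and pyruvate dehydrogenase, 3 were higher and 1 lower in CCR2-RFP cells than in double-negative cells (16.7 and 5.56%, near the 14.9 and 9.88% of all tested genes). Mdh2, mitochondrial malate dehydrogenase, was at 10.8, 8.21 and 9.09 TPM in double-negative, 28.3, 27.7 and 24.1 TPM in CCR2-RFP, and 8.07, 9.63 and 7.84 TPM in CX3CR1-GFP libraries. Idh2, mitochondrial NADP-dependent isocitrate dehydrogenase, was the lower one, at 17.6, 16.6 and 12.8 TPM, 6.32, 4.29 and 5.15 TPM, and 11.4, 9.14 and 10.5 TPM. The 2 genes thus went in opposite directions with no overlap between CCR2-RFP and double-negative libraries (log2 fold changes 1.42 and -1.41, adjusted p = 0.00011 and 0.00035, limma). Cs, citrate synthase, was higher as well (1.13, adjusted p = 0.0064).

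Few assembly genes outside the name rule passed the test in CCR2-RFP against double-negative cells, where 14.9% of all tested genes were higher and 9.88% lower. Higher were 0 of 9 for complex I and 1 of 5 for complex III (Uqcc2, 1.27, adjusted p = 0.049, limma, with overlapping values). For complex IV it was 1 of 19 (Cox20, 0.84, adjusted p = 0.010, limma), and for ATP synthase factors 0 of 6. None of these genes was lower. In CX3CR1-GFP against CCR2-RFP cells, 1 of 9 complex I, 1 of 5 complex III (Uqcc2, -2.18), 5 of 19 complex IV (among them the copper chaperone Cox17, -1.35) and 2 of 6 ATP synthase factors were lower, where 17.3% of all tested genes were. Whether assembly genes and subunits differ was not tested.

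Of 14 tested regulators of mitochondrial biogenesis, only Pparg was higher and only Ppard lower in CCR2-RFP cells than in double-negative cells (log2 fold changes 1.16 and -0.91; adjusted p = 0.026 and 0.0088, limma). That was 7.14% in each direction, below the 14.9% higher and 9.88% lower of all tested genes. Gabpa, whose product binds the motif shown above, was at 8.49, 4.29 and 2.67 TPM in double-negative, 9.15, 9.15 and 7.08 TPM in CCR2-RFP, and 17.2, 20.1 and 10.5 TPM in CX3CR1-GFP libraries. It was higher in CX3CR1-GFP than in double-negative cells (1.53, adjusted p = 0.043, limma), the 1 call of the list there. That was 7.14%, where 1.16% of all tested genes were higher. Nrf1 was at 1.44 to 2.59, 1.76 to 2.49 and 0.654 to 1.73 TPM and was not called, and Ppargc1a did not reach 1 TPM in 3 libraries and was not tested. Another list, on itaconate synthesis and the hypoxia response, had 4 tested genes. In CCR2-RFP against double-negative cells 2 of them were positive and 2 negative. Only Hif1a was called (25% higher, against 14.9% of all tested genes). Hif1a, the hypoxia response factor, was at 14.2, 7.29 and 9.74 TPM in double-negative, 27.99, 33.4 and 27.6 TPM in CCR2-RFP, and 9.91, 10.8 and 6.74 TPM in CX3CR1-GFP libraries (1.47 in CCR2-RFP against double-negative cells, adjusted p = 0.0014).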

How the data were processed

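RNA-seq of 9 libraries (3 populations, 3 sorts) was analysed from 1 deposited table of TPM per gene symbol; per the labels' protocols, 1 ng of total RNA gave paired reads of 75 bases, and per the submitters' processing notes the authors used bcl2fastq 2.18, cutadapt 1.8.3, Salmon 0.11.3 and mm10. Not given in the sources used here are the annotation, the use of strand and the step from transcripts to genes. The filter kept genes reaching 1 TPM in 3 or more libraries, and log2(TPM + 1) was fitted with limma 3.58.1 in R 4.3.3 (1 mean per population, trend on mean level, all 9 libraries, 6 residual degrees of freedom, 2-sided, Benjamini-Hochberg over all genes kept, called below 0.05). Fold changes are on that scale, which understates changes of low genes. The code was tested on simulated data. The members, gene lists and tests were chosen with earlier results of these data known.

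Genes were named by rule: isoform sets of complex IV, the 4 complex II subunits, up to 3 called members per comparison, complex and direction with the largest fold change and at least 10 TPM in the higher population (or the 2 of highest mean), the highest mean per complex, and up to 3 called genes per other list. Names outside that rule are in counts or were chosen after their values were seen, and 1 item is not reported here. Coordinates are from GENCODE M21, GRCm38, which covered 96 of the 97 members, and promoters from RefSeq on GRCm38.p6.

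The design text, 3 mice and 3 replicates per population, reads as 1 mouse per sort label, which would pair libraries by animal; deviations from population means correlated at 0.0315 to 0.205 between libraries of the same sort (9 pairs) and -0.16 to 0.112 between different sorts (18 pairs). The main test has no replicate block. Nothing else says whether libraries are separate animals, so p-values measure the spread between these libraries.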

Additional observations from a re-analysis of the deposited data

How the results depend on the processing

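The alternatives were another pseudocount, another or no filter, 3 scalings, the sort as a replicate block, only the 2 populations compared, no trend and each library left out, with 2 added after seeing the data (without sort 2A, and rescaled without Siglece alone). Genes higher in CCR2-RFP than double-negative cells were 21 with the deposited values, and 9 with no filter, 9 rescaled, 3 by quantile normalization, 7 without sort 2A, 6 without Siglece, and 7 to 30 leaving out 1 library; lower genes were 0, or 1 without sort 2A, and 0 to 1 leaving out 1 library. Their median was 0.40, and 0.24, 0.25 and 0.22 after rescaling, quantile normalization and rescaling without Siglece. Between CX3CR1-GFP and double-negative cells the count of lower genes went from 1 to 0 with no filter, with only the 2 populations and without sort 2A (0 to 1 leaving out 1 library), and the median from -0.19 to -0.41 without sort 2A (-0.34 to -0.16 leaving out 1 library). Genes lower in CX3CR1-GFP than CCR2-RFP cells were 38, and 24 with no filter, 13 rescaled, 8 by quantile normalization, 13 without Siglece, and 20 to 45 leaving out 1 library, with 0 to 1 higher; the median of -0.66 became -0.49 with pseudocount 5, -0.41 rescaled, -0.40 by quantile normalization and -0.42 rescaled without Siglece (-0.60 by median-of-ratios). The F test called 31, and 13 with no filter, 8 rescaled, 7 by quantile normalization, 7 without Siglece, 16 without sort 2A, and 10 to 40 leaving out 1 library. In the fit with the replicate block (paired by sort), 20 were higher in CCR2-RFP than double-negative cells, of which 18 were the same genes, 1 lower in CX3CR1-GFP than double-negative cells, and 38 lower in CX3CR1-GFP than CCR2-RFP cells, of which 35 were the same; it moved no count by over 1.5 times. No direction of these medians reversed. The causes of these changes were not tested. With no counts the depth is unknown, and 3 libraries per population limit the precision.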
